A study of Homo sapiens with 10 samples.

Results

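The 43 genes described here encode the machinery of mitosis and of the G2 phase that precedes it. They were listed by name for their known functions, with earlier results of these data known. Each was found in the count tables through its symbol, 43 of 57445 gene identifiers. All 43 had exactly 1 identifier, and all 43 were among the 18478 genes with enough reads to test. RNA-seq had been made from PC3 cells, an established human prostate cancer line, in 5 groups of 2 libraries. Cells of 3 groups stably carried an shRNA, a short hairpin RNA meant to lower a chosen transcript: the Scramble control hairpin, RNF2 shRNA1 or RNF2 shRNA2. RNF2 is the ubiquitin ligase subunit of Polycomb repressive complex 1, a chromatin silencing complex. In the other groups PC3 cells had been treated for 48 hours with PRT4165, an inhibitor of that ligase activity, or with GW-516, a compound known here by its code name. The labels gave no dose, no vehicle control and no hairpin for the treated cells, so a comparison of either compound with Scramble also holds any effect of the vehicle, of the hairpin vector and of its selection. Nor did they tell whether a group's 2 libraries were grown as separate cultures, so every p-value here measures only the spread between these libraries, which may be technical.

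A cell enters mitosis when CDK1, bound to a B-type cyclin, is switched on, and it leaves mitosis when the anaphase-promoting complex, a ubiquitin ligase, marks cyclin B and securin for destruction. Between these events the kinetochores attach chromosomes to the spindle, the spindle checkpoint holds anaphase back until all are attached, and separase then cuts the cohesin that joins sister chromatids. The transcripts of these proteins are made in waves that peak in G2 and mitosis. Their promoters are known for the CHR, the cell cycle genes homology region, which is read by the DREAM and MuvB complexes, and for CCAAT boxes, which are read by the factor NF-Y. In bulk RNA such as this, fewer cells in G2 or mitosis and less of these transcripts per cell cannot be told apart.

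Promoter sequences show what many of the members shared beyond their function. RefSeq promoter entries on the GRCh38.p14 assembly, each running from 250 bases before to 50 bases after a transcription start, were available for 36 of the 43 members. Entries for AURKA, FOXM1, TTK, UBE2C, BIRC5, TPX2 and RACGAP1 were not used here. The search was for the CHR as TTTGAA or TTCGAA and for the CCAAT box as CCAAT, both on either strand. The 6 stretches below are the 100 bases before the start, 5′ to 3′ on the gene's own strand, for 6 members from 4 of the 8 roles. CHR and CCAAT letters are in capitals. These members are examples picked by no fixed rule, and all 6 carry both kinds of letters. They do not stand for the members that lack either kind. CCNB2 encodes a B-type cyclin (chr15:59105046-59105145, plus strand), PLK1 a kinase of mitotic entry (chr16:23678789-23678888, plus strand) and MKI67 the Ki-67 coat protein of mitotic chromosomes (chr10:128126424-128126523, minus strand). CKS2 encodes a small CDK-binding subunit (chr9:89311095-89311194, plus strand), ESPL1 separase (chr12:53268199-53268298, plus strand) and KIF23 a kinesin of the central spindle (chr15:69414249-69414348, plus strand).
CCNB2: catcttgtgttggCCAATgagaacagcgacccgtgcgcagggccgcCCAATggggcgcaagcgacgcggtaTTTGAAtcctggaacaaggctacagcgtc
PLK1: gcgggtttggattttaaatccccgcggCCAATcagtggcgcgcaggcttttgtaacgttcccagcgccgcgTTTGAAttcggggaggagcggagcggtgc
MKI67: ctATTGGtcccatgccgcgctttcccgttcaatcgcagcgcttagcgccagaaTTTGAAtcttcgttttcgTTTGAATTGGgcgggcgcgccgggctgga
CKS2: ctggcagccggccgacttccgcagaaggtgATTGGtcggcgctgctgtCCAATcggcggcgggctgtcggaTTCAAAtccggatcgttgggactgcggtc
ESPL1: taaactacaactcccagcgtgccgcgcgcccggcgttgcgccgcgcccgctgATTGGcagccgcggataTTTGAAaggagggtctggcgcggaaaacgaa
KIF23: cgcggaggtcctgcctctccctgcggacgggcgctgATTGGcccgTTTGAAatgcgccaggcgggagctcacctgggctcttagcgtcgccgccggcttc
In CCNB2, PLK1 and CKS2 the CHR letters began 29 bases before the start, and in ESPL1 they began 31 bases before it. MKI67 carried 2 CHR matches, at 47 and 29 bases before the start, and the nearer one shared 1 base with a CCAAT match on the other strand. KIF23 had its CHR letters at 55 bases and its CCAAT letters at 64 bases before the start.

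Within 100 bases before to 50 bases after the start, the CHR letters were present in 26 of 36 members (72.2%), against 9.09% of the 27305 genes with a promoter entry and 0 of 25 genes of DNA replication and G1/S. CCAAT letters lay in the same window in 27 of 36 members (75.0%), against 25.3% of all genes and 11 of 25 replication genes. The forkhead core TGTTTA, searched because FOXM1 belongs to the forkhead family, was found there in 1 of 36 members (2.78%) and in 6.79% of all genes. Members without CHR letters in that window were ASPM, AURKB, CCNA2, CCNB1, CENPE, KIF20A, KIF2C, NEK2, PTTG1 and TOP2A. These matches describe letters in a window and are not evidence of binding. Only TTTGAA and TTCGAA were searched for, so a member without them was not shown to lack a CHR.

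**Figure D1:**
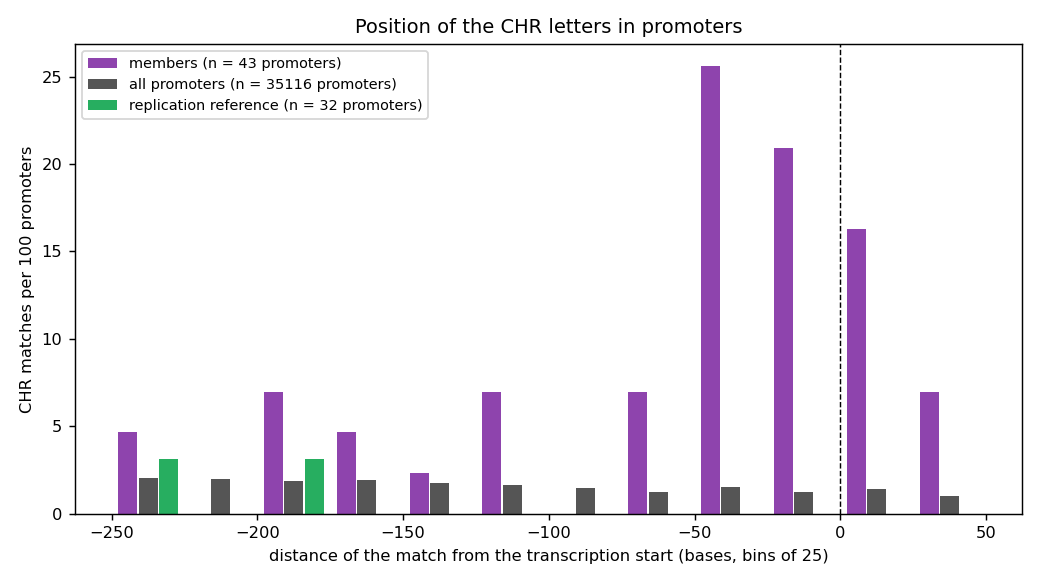
CHR matches per 100 promoters (vertical axis) in bins of 25 bases by distance from the transcription start (horizontal axis, bases), for 43 promoters of the members, 35116 promoters of all genes and 32 promoters of replication genes. Member promoters reach 25.58 matches per 100 in the bin that starts 50 bases before the start, against 1.53 for all promoters.

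Total counts ran from 65877850 to 108380198 per library, with each read end counted on its own. RNF2, the target of both hairpins, stood at 30.6 and 28.3 CPM (counts scaled to library size, with TMM factors) in Scramble and at 12.1 and 12 CPM with RNF2 shRNA1. RNF2 reached 33.5 and 35.3 CPM in the libraries labelled RNF2 shRNA2, while BMI1, another Polycomb gene, stood at 53 and 61.6 CPM there against 251 and 255 CPM in Scramble. Those libraries therefore go against their label, and they are named by it throughout only for reference. File headers name the cells MDV3 and not PC3, the libraries labelled RNF2 shRNA2 by a number and not as a hairpin, and the GW-516 libraries Th4. Of those labelled RNF2 shRNA2, replicate 2 carries the added tag L005only there, and what these header names mean is not stated. That library also had the highest total counts, 108380198 against 71352811 for replicate 1 of its group. Epithelial markers (KRT8, KRT18, KRT19, EPCAM and CDH1) were all at or above 1 CPM in each library. Their summed level was 1237 and 1247 CPM in Scramble and ran from 1158 to 1590.0 CPM over the libraries, highest with GW-516, where 4 of the 5 rose and 1 fell. The 2 libraries of Scramble, of RNF2 shRNA1 and of GW-516 differed by little more than sampling noise: chi-square divided by its degrees of freedom was 1.08 to 1.1 once counts were halved for the double counting of read ends. Counts of members called against Scramble are therefore also given with each of those pairs summed to 1 sample. On the same scale the ratio was 6.11 for the libraries labelled RNF2 shRNA2 and 3.44 for PRT4165. The fit took its spread from all 5 groups together. Standard errors, intervals and p-values for these more variable groups may therefore be too small.

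The summed level of the 43 members set the groups apart. It was 6256 and 6231 CPM in the Scramble libraries, 6908 and 6889.8 CPM with RNF2 shRNA1, and 5387 and 5409 CPM in the libraries labelled RNF2 shRNA2. PRT4165 gave 6178 and 5989 CPM, and GW-516 gave 4318 and 4314 CPM. RNF2 shRNA1 was thus the highest group and GW-516 the lowest, and only PRT4165 and Scramble came close to each other. Gene by gene, the mean level was lowest with GW-516 for 39 of 43 members and highest with RNF2 shRNA1 for 28 of 43. Per kilobase of transcript, Scramble levels ran from 192 CPM for CKS2, 99.1 CPM for CCNB1 and 97.9 CPM for UBE2C down to 5.01 CPM for SPC25 and 4.81 CPM for CDC25C.

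**Figure D2:**
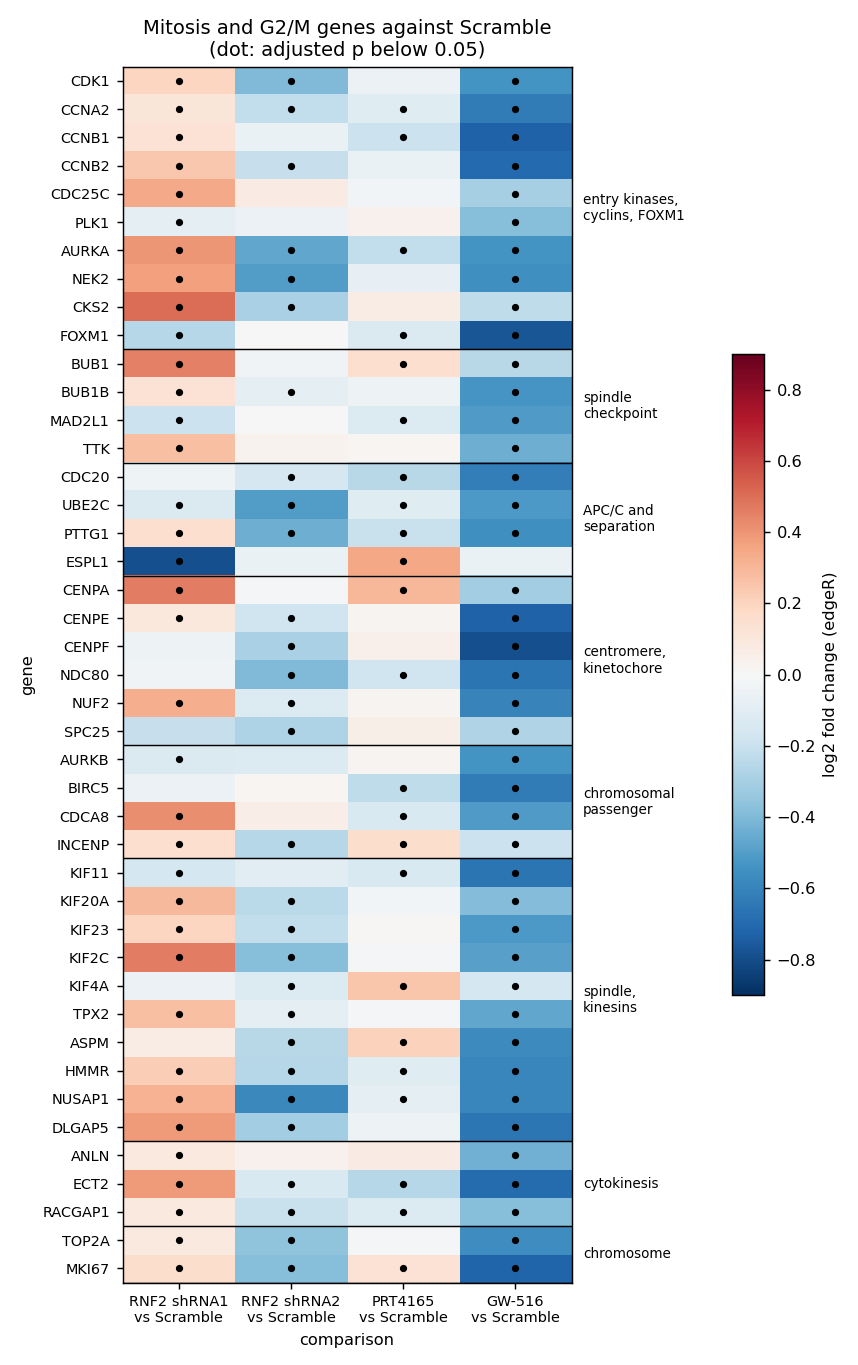
Log2 fold change against Scramble (colour, edgeR) of the 43 members (rows, grouped by role) in 4 comparisons (columns), with a dot where the adjusted p was below 0.05. The GW-516 column is blue for all members, with a dot for 42 of 43, and the RNF2 shRNA1 column is red for most, with ESPL1 at -0.79 as its lowest value.

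With RNF2 shRNA1, most mitotic transcripts were higher than in Scramble by small steps, and a few were lower. Of the 43 members 29 rose and 7 fell (edgeR quasi-likelihood test, adjusted p below 0.05, 83.7% called). Of all genes tested 54.7% were called, 26.2% higher and 28.6% lower. The median log2 fold change of the members was 0.15 against -0.015 for all genes tested. Increases were led by CKS2 (log2 0.50), KIF2C (0.46), a microtubule-depolymerizing kinesin, and CENPA (0.46), the histone H3 variant of centromeres. Decreases were led by ESPL1 (-0.79), FOXM1 (-0.26), a transcription factor of G2/M genes, and MAD2L1 (-0.19), a spindle checkpoint protein. Only ESPL1 changed by more than 0.5 on the log2 scale, and 19 of the 36 called members changed by less than 0.25. With the near-identical pairs summed, 21 members were called, 19 higher and 2 lower, against 34.3% of all genes. The calls lost in that setting were those of CCNA2, CCNB1, PLK1, BUB1B, MAD2L1, UBE2C, PTTG1, CENPE, AURKB, INCENP, KIF11, ANLN, RACGAP1, TOP2A and MKI67.

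In the libraries labelled RNF2 shRNA2 the mitotic genes leaned the other way. Of the 43 members 29 fell and 14 were not called (edgeR), with 21% of all genes tested called lower, 21.1% called higher and 42.1% called in all. No member rose, and none was higher at an unadjusted p below 0.05 or by DESeq2 or limma-voom. The median log2 fold change was -0.20 against 0.009 for all genes tested. Decreases were led by NUSAP1 (-0.58), a spindle-associated microtubule binder, NEK2 (-0.50), a kinase of centrosome separation, and UBE2C (-0.50), the ubiquitin-conjugating enzyme of the anaphase-promoting complex. Summing the near-identical pairs left 23 members called, all lower, against 24.1% of all genes, with the calls of BUB1B, NUF2, SPC25, KIF4A, TPX2 and ECT2 lost.

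PRT4165 moved the members in both directions and by little. Of the 43 members 7 rose, 16 fell and 20 were not called (edgeR), with 19.9% of all genes tested called higher, 21.7% lower and 41.6% in all. The median log2 fold change was -0.03 against -0.01 for all genes tested, and no member passed 0.5 in either direction. Increases were led by ESPL1 (0.35), CENPA (0.30) and KIF4A (0.25), a chromosome-bound kinesin. KIF4A shares sequence with its near-identical copy KIF4B, and how such reads were assigned was not given in the sources used here. Decreases were led by ECT2 (-0.26), the exchange factor that starts the cleavage furrow, CDC20 (-0.25), the activator of the anaphase-promoting complex, and BIRC5 (-0.23), or survivin. Leaving out Scramble replicate 2 lowered the 23 calls to 15, beside a fall from 41.6% to 30.5% of all genes called, and summing the near-identical pairs lowered them to 10, 4 higher and 6 lower, against 24.1% of all genes. Lost with the pairs summed were the calls of CCNA2, FOXM1, BUB1, MAD2L1, UBE2C, NDC80, CDCA8, INCENP, KIF11, HMMR, NUSAP1, RACGAP1 and MKI67.

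GW-516 gave the broadest difference, with nearly every mitotic transcript below Scramble. Of the 43 members 42 fell and none rose (edgeR), with 29% of all genes tested called lower, 26.5% higher and 55.5% in all. No member was higher at an unadjusted p below 0.05 or by DESeq2 or limma-voom. The median log2 fold change was -0.54 against -0.002 for all genes tested, a level 1.46-fold lower than in Scramble. Decreases were led by CENPF (-0.79), a large kinetochore protein, FOXM1 (-0.77) and CENPE (-0.73), the kinetochore motor, and 28 of 43 members changed by more than 0.5. None reached a 2-fold change in this or any other comparison, while 9.05% of all genes tested were called at that size with GW-516. With the near-identical pairs summed, 40 members were called, all lower, against 33.8% of all genes. Markers of other cell types also differed with GW-516: of 7 genes of that list tested, 5 rose and none fell (COL1A1, ACTA2, VWF, PDGFRB and DCN). COL1A1, a fibroblast collagen gene, was at 46.9 and 46.1 CPM with GW-516 against 26.3 and 27.1 CPM in Scramble (log2 0.80), and fell with RNF2 shRNA1 (-0.47) and in the libraries labelled RNF2 shRNA2 (-0.74). The list's 9 matched genes summed to 51.1 and 50.1 CPM with GW-516, 28.8 and 29.4 in Scramble and 17.9 to 33.8 in the other groups, nearly all of it COL1A1. VWF and DCN had means of at most 0.139 CPM with GW-516, and the T cell marker CD3E was at 0 there. Among epithelial markers CDH1, or E-cadherin, rose with GW-516 (log2 1.35) and with PRT4165 (1.4), and KRT8 and KRT19 rose with GW-516 (0.54 and 0.69). KRT18 fell with both, by 0.20 with GW-516 and by 0.45 with PRT4165, while 4 of the 5 rose with each compound. The part of these markers in the members' levels was not tested.

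**Figure D3:**
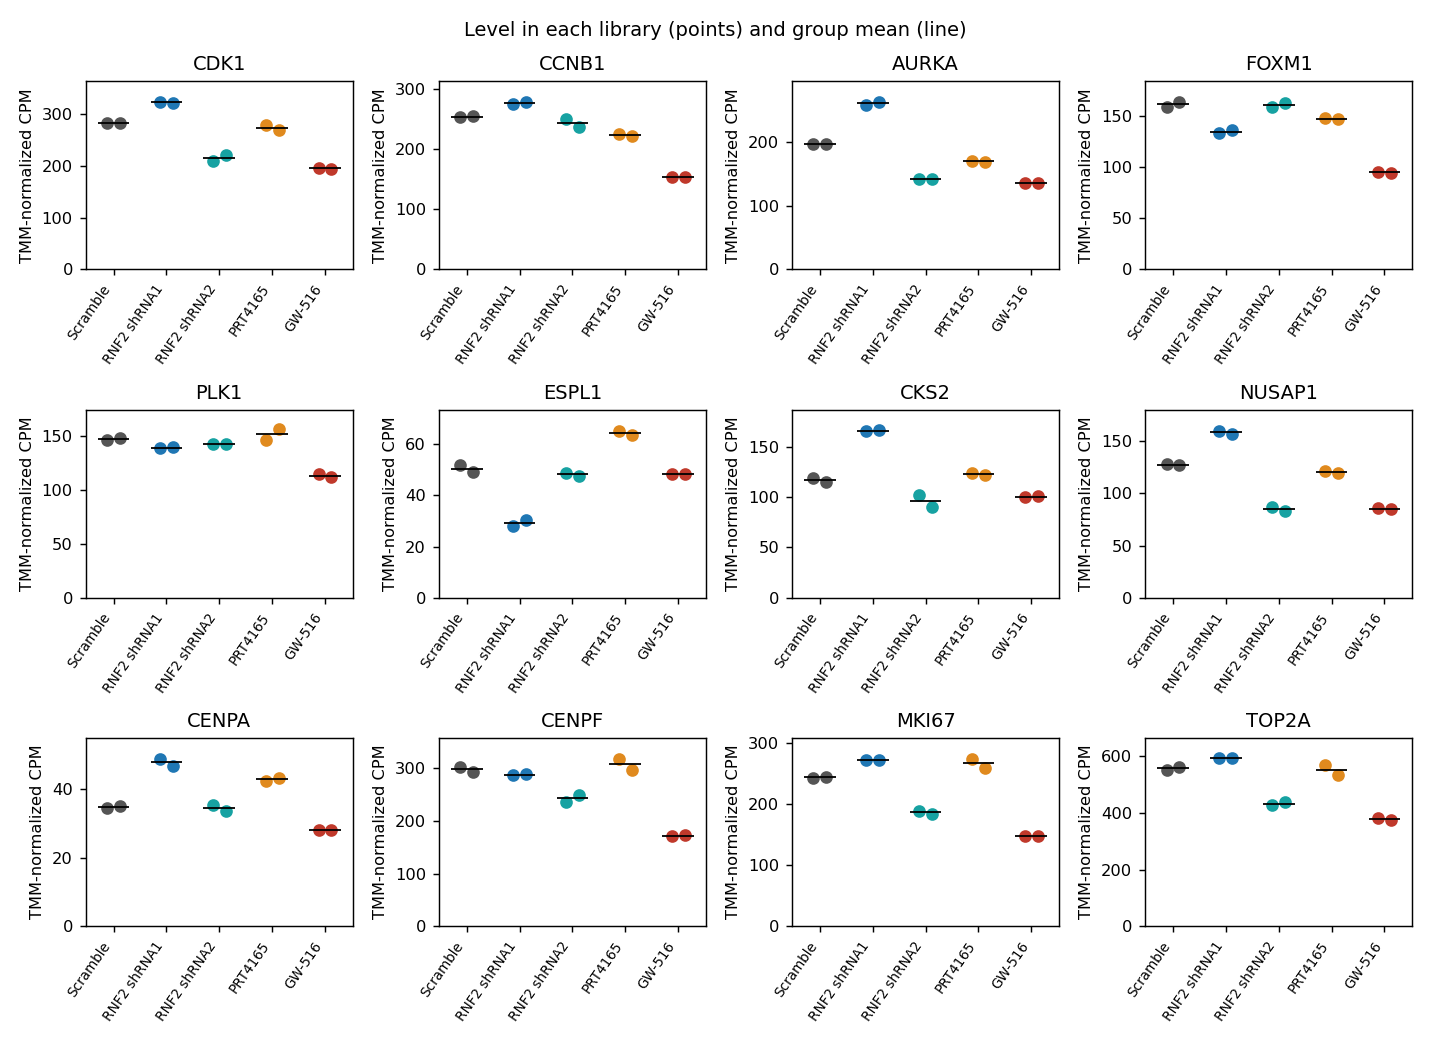
TMM-normalized CPM (vertical axis, from 0) in each of 10 libraries (points) with the group mean (line) for 12 members, 5 groups of 2 libraries per panel. The 2 points of a group nearly coincide for most genes, and GW-516 lies below Scramble in every panel except that of ESPL1, where they nearly meet.

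Kinases and cyclins of mitotic entry came first among the roles, with 10 members. Of these 8 rose and 2 fell with RNF2 shRNA1, 6 fell in the libraries labelled RNF2 shRNA2, 4 fell with PRT4165 and all 10 fell with GW-516. CDK1, the central kinase, measured 284 and 284 CPM in Scramble, 325 and 322 with RNF2 shRNA1, 210.1 and 222 in the libraries labelled RNF2 shRNA2, 279 and 269.6 with PRT4165, and 197 and 195 with GW-516. No pair overlapped that of Scramble, though PRT4165 lay within 0.05 of it on the log2 scale (95% interval -0.11 to 0.01) and was not called. CDK1 fell 1.45-fold with GW-516 (log2 -0.54, SE 0.03, edgeR adjusted p = 1.4e-13) and 1.32-fold in the libraries labelled RNF2 shRNA2 (log2 -0.40, SE 0.03, edgeR adjusted p = 1.1e-10). Its partner CCNB1, cyclin B1, measured 253 and 254 CPM in Scramble, 275 and 278 with RNF2 shRNA1, 249.8 and 236 in the libraries labelled RNF2 shRNA2, 224 and 221 with PRT4165, and 153 and 153 with GW-516. CCNB1 thus fell with both compounds, by 0.19 and 0.73 on the log2 scale, and did not pass the test in the libraries labelled RNF2 shRNA2 (log2 -0.06, edgeR adjusted p = 0.11).

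AURKA is the kinase that matures centrosomes. It measured 197 and 196 CPM in Scramble, 258 and 262 with RNF2 shRNA1, 142 and 142 in the libraries labelled RNF2 shRNA2, 169.8 and 169 with PRT4165, and 135 and 135 with GW-516. All 5 groups were apart, and AURKA was called in each comparison with Scramble, 1.32-fold higher with RNF2 shRNA1 and 1.39-fold lower in the libraries labelled RNF2 shRNA2. PLK1, the Polo-like kinase, varied less: 146 and 148 CPM in Scramble, 138 and 139 with RNF2 shRNA1, 142 and 142 in the libraries labelled RNF2 shRNA2, 146 and 156 with PRT4165, and 114 and 112 with GW-516. It fell clearly only with GW-516 (log2 -0.38, SE 0.03, edgeR adjusted p = 6.8e-10). Its lower level with RNF2 shRNA1 (log2 -0.09, edgeR adjusted p = 0.025) was lost with DESeq2, with other size factors and when any of the 4 libraries compared was left out.

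FOXM1 was the transcription factor among the entry genes. Its levels were 159 and 164 CPM in Scramble, 133 and 136 with RNF2 shRNA1, 159 and 163 in the libraries labelled RNF2 shRNA2, 148 and 147 with PRT4165, and 95.2 and 94.5 with GW-516. It fell with RNF2 shRNA1 (log2 -0.26, SE 0.03, edgeR adjusted p = 1.1e-07), where 8 other entry genes rose, and its pair overlapped that of Scramble in the libraries labelled RNF2 shRNA2. With GW-516 it fell 1.7-fold (log2 -0.77, SE 0.03, edgeR adjusted p = 4.6e-16). CKS2, whose promoter is printed above, went from 119 and 115 CPM in Scramble to 165 and 166 with RNF2 shRNA1, and stood at 102 and 90.1 in the libraries labelled RNF2 shRNA2, 124 and 122 with PRT4165, and 99.6 and 101 with GW-516. NEK2 measured 46.4 and 46 CPM in Scramble, 60.4 and 59.4 with RNF2 shRNA1 and 33 and 32.4 in the libraries labelled RNF2 shRNA2. Cyclins CCNA2 and CCNB2 rose with RNF2 shRNA1 (log2 0.11 and 0.24) and fell with GW-516 (-0.63 and -0.70). CDC25C, the phosphatase that activates CDK1, rose with RNF2 shRNA1 (0.34) and fell with GW-516 (-0.30).

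Among the 4 genes of the spindle checkpoint, BUB1, BUB1B and TTK rose with RNF2 shRNA1 while MAD2L1 fell, and all 4 fell with GW-516. BUB1B, the checkpoint kinase-like protein BubR1, measured 129 and 127 CPM in Scramble, 137 and 143 with RNF2 shRNA1, 121 and 119.7 in the libraries labelled RNF2 shRNA2, 125 and 123 with PRT4165, and 86.8 and 90.4 with GW-516. It fell 1.44-fold with GW-516 (log2 -0.53, SE 0.03, edgeR adjusted p = 1.6e-12). MAD2L1, which binds CDC20 to hold anaphase back, measured 117 and 117 CPM in Scramble, 103 and 103 with RNF2 shRNA1, 114 and 121 in the libraries labelled RNF2 shRNA2, 112 and 105 with PRT4165, and 81.9 and 83 with GW-516. Only in the libraries labelled RNF2 shRNA2 did its pair overlap that of Scramble. BUB1, the kinase that recruits other checkpoint proteins, rose by 0.45 with RNF2 shRNA1 and by 0.15 with PRT4165, and fell by 0.25 with GW-516. TTK, the checkpoint kinase Mps1, rose with RNF2 shRNA1 (0.27) and fell with GW-516 (-0.44).

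ESPL1, encoding separase, was the exception among the 4 genes of anaphase. It measured 51.6 and 49 CPM in Scramble, 27.9 and 30.2 with RNF2 shRNA1, 48.7 and 47.7 in the libraries labelled RNF2 shRNA2, 64.9 and 63.6 with PRT4165, and 48.2 and 48.4 with GW-516. RNF2 shRNA1, where most members were highest, gave the lowest pair, and PRT4165 gave the highest. The fall with RNF2 shRNA1 was 1.73-fold (log2 -0.79, SE 0.05, edgeR adjusted p = 3.6e-13), the rise with PRT4165 1.28-fold (log2 0.35, SE 0.04, edgeR adjusted p = 4.8e-07). With GW-516 ESPL1 alone among the 43 members was not called (log2 -0.06, 95% interval -0.15 to 0.03, edgeR adjusted p = 0.28). CDC20 measured 184 and 181 CPM in Scramble, 177 and 179 with RNF2 shRNA1, 168 and 161 in the libraries labelled RNF2 shRNA2, 153 and 154 with PRT4165, and 117 and 119.6 with GW-516, and was called in all but RNF2 shRNA1. UBE2C was called lower in all 4 comparisons, from 163 and 158 CPM in Scramble to 120 and 108 in the libraries labelled RNF2 shRNA2 and 113 and 111 with GW-516. PTTG1, or securin, the inhibitor of separase, rose with RNF2 shRNA1 (log2 0.15) and fell in the libraries labelled RNF2 shRNA2 (-0.44), with PRT4165 (-0.20) and with GW-516 (-0.55). PTTG1 has the near copies PTTG2 and PTTG3P, so its counts carry the same uncertainty as those of KIF4A.

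Centromere and kinetochore genes gave 3 increases with RNF2 shRNA1, 5 decreases in the libraries labelled RNF2 shRNA2, and 6 decreases of 6 with GW-516. CENPF measured 303 and 293 CPM in Scramble, 287 and 289.5 with RNF2 shRNA1, 237 and 250.1 in the libraries labelled RNF2 shRNA2, 318 and 297 with PRT4165, and 172 and 173 with GW-516. Its PRT4165 pair overlapped that of Scramble, and GW-516 was 1.72-fold lower (log2 -0.79, SE 0.03, edgeR adjusted p = 1.5e-15). CENPE measured 119 and 117 CPM in Scramble and 70.3 and 71.8 with GW-516, a 1.66-fold fall (log2 -0.73, SE 0.04, edgeR adjusted p = 3.1e-14). CENPA rose from 34.5 and 34.9 CPM in Scramble to 48.8 and 46.8 with RNF2 shRNA1 and to 42.2 and 43.3 with PRT4165, stood at 35.4 and 33.6 in the libraries labelled RNF2 shRNA2, and fell to 27.9 and 27.9 with GW-516. NDC80 and NUF2, of the complex that grips microtubules, fell with GW-516 by 0.66 and 0.60 on the log2 scale, while NUF2 rose by 0.33 with RNF2 shRNA1. SPC25, another subunit and the member with the fewest reads, measured 8.96 and 9.47 CPM in Scramble and 7.89 and 7.39 with GW-516. Its decrease there (log2 -0.27) was lost with DESeq2, with the pairs summed and without Scramble replicate 2 or GW-516 replicate 2.

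The 4 chromosomal passenger genes, whose proteins correct faulty attachments and steer cytokinesis, all fell with GW-516. BIRC5 measured 235 and 235 CPM in Scramble, 223 and 229.9 with RNF2 shRNA1, 237 and 239 in the libraries labelled RNF2 shRNA2, 203 and 197 with PRT4165, and 151 and 153 with GW-516. Neither hairpin moved it past the test, and it fell 1.18-fold with PRT4165 (log2 -0.23, SE 0.03, edgeR adjusted p = 4.5e-07) and 1.55-fold with GW-516 (log2 -0.63, SE 0.03, edgeR adjusted p = 4.8e-15). CDCA8, or borealin, rose by 0.42 with RNF2 shRNA1 and fell by 0.51 with GW-516. AURKB, the catalytic kinase, fell by 0.54 with GW-516. INCENP, the scaffold, rose with RNF2 shRNA1 (0.15) and PRT4165 (0.16) and fell in the libraries labelled RNF2 shRNA2 (-0.26) and with GW-516 (-0.19).

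Of the 10 genes for spindle proteins and kinesins, 7 rose and 1 fell with RNF2 shRNA1, 9 fell in the libraries labelled RNF2 shRNA2, 2 rose and 3 fell with PRT4165, and all 10 fell with GW-516. The gene that fell with RNF2 shRNA1 was KIF11, the motor that pushes spindle poles apart. It measured 89.1 and 87.6 CPM in Scramble, 81.1 and 77.3 with RNF2 shRNA1, 80.7 and 84.8 in the libraries labelled RNF2 shRNA2, 83.5 and 77.1 with PRT4165, and 54.2 and 57.4 with GW-516. KIF11 was 1.58-fold lower with GW-516 (log2 -0.66, SE 0.04, edgeR adjusted p = 3.2e-12), and its smaller falls with RNF2 shRNA1 (-0.16) and PRT4165 (-0.14) were lost when Scramble replicate 1 was left out. KIF2C measured 115 and 112 CPM in Scramble, 156 and 157 with RNF2 shRNA1, 88 and 86.3 in the libraries labelled RNF2 shRNA2, 115 and 109.6 with PRT4165, and 81.3 and 80.4 with GW-516. NUSAP1 measured 128 and 127 CPM in Scramble, 159.9 and 157 with RNF2 shRNA1, 87 and 83.4 in the libraries labelled RNF2 shRNA2, 121 and 119.6 with PRT4165, and 85.5 and 84.6 with GW-516. For NUSAP1 the libraries labelled RNF2 shRNA2 and those of GW-516 lay equally far below Scramble, 1.5-fold each. KIF4A stood apart, at 136 and 132 CPM in Scramble, 160.2 and 159 with PRT4165, and 121 and 118 with GW-516, its fall with GW-516 (log2 -0.16) being lost with the pairs summed. The other spindle genes, KIF20A, KIF23, TPX2, ASPM, HMMR and DLGAP5, fell with GW-516 by 0.39 to 0.65 on the log2 scale.

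All 3 cytokinesis genes rose with RNF2 shRNA1 and fell with GW-516. ECT2 measured 128 and 125 CPM in Scramble, 164 and 164 with RNF2 shRNA1, 109 and 120.1 in the libraries labelled RNF2 shRNA2, 111 and 101 with PRT4165, and 78.1 and 79.1 with GW-516. It was 1.3-fold higher with RNF2 shRNA1 (log2 0.38, SE 0.05, edgeR adjusted p = 6.6e-07) and 1.61-fold lower with GW-516 (log2 -0.69, SE 0.05, edgeR adjusted p = 1.7e-10). ANLN, the furrow scaffold anillin, and RACGAP1, of the central spindle, fell with GW-516 by 0.43 and 0.38 on the log2 scale. TOP2A, the topoisomerase that untangles sister chromatids, measured 553 and 564 CPM in Scramble, 594 and 594 with RNF2 shRNA1, 429.5 and 438 in the libraries labelled RNF2 shRNA2, 571 and 535 with PRT4165, and 381 and 377 with GW-516. Its PRT4165 pair straddled that of Scramble, and its rise with RNF2 shRNA1 (log2 0.09) was lost with the pairs summed, without Scramble replicate 1 or without RNF2 shRNA1 replicate 1. MKI67 measured 243 and 245 CPM in Scramble, 272 and 272 with RNF2 shRNA1, 189.6 and 184 in the libraries labelled RNF2 shRNA2, 274 and 259.7 with PRT4165, and 148 and 148 with GW-516. It rose with PRT4165 (log2 0.13, edgeR adjusted p = 0.00094) and fell 1.65-fold with GW-516 (log2 -0.72, SE 0.03, edgeR adjusted p = 7.4e-16).

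Members with and without CHR letters near the start were set side by side without a test. Of those without, ASPM carried CHR letters farther out, 113 bases before the start, and TOP2A at 194 and 151 bases. In GW-516 the median log2 fold change was -0.52 for the 26 members with the letters and -0.56 for the 10 without them. With RNF2 shRNA1 the medians were 0.18 and 0.12, in the libraries labelled RNF2 shRNA2 -0.15 and -0.24, and with PRT4165 -0.01 and -0.02. ESPL1 and MKI67, both printed above with CHR and CCAAT letters, moved in opposite directions with RNF2 shRNA1.

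DNA replication and G1/S genes, a list of 30 such as MCM2 and TYMS, gave a reference from another part of the cell cycle. This list too was chosen with earlier results of these data known, so the contrast is a description. With RNF2 shRNA1 all 30 fell, with a median log2 fold change of -0.58 where the mitotic members' median was 0.15. Their summed level was 2403 and 2394 CPM with RNF2 shRNA1 against 3674 and 3663 CPM in Scramble, so the ratio of mitotic to replication sums was 2.87 and 2.88 against 1.70 and 1.70. With GW-516, 28 of 30 fell (median -0.63) beside 42 of 43 members, and the ratio was 1.81 and 1.81. PRT4165 gave 26 decreases of 30 (median -0.32) and a ratio of 2.05 and 2.01. In the libraries labelled RNF2 shRNA2, 10 of 30 fell and 1 rose (median -0.07), with a ratio of 1.56 and 1.57. The share of all genes called lower was 28.6% with RNF2 shRNA1, 29% with GW-516, 21.7% with PRT4165 and 21% in those libraries. Only RNF2 shRNA1 thus combined higher mitotic sums with lower replication sums, and only in the libraries labelled RNF2 shRNA2 did the ratio lie below that of Scramble.

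**Figure D4:**
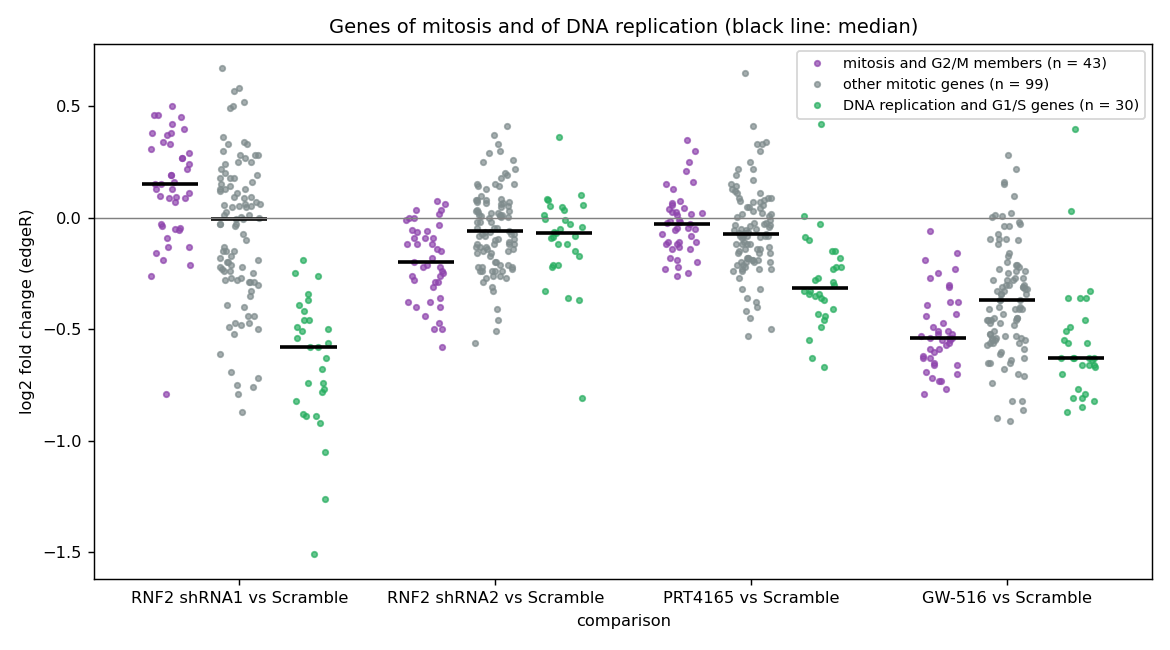
Log2 fold change against Scramble (vertical axis, edgeR) of 43 mitosis and G2/M members, 99 other mitotic genes and 30 DNA replication and G1/S genes (points) in 4 comparisons (horizontal axis), with the median as a black line. The members' median lies above 0 and the replication median at -0.58 with RNF2 shRNA1, while the medians are -0.54 and -0.63 with GW-516.

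Other mitotic genes, 99 on lists of kinetochore, condensin, cohesin, anaphase-promoting complex, entry and spindle proteins, mostly fell with GW-516 and moved both ways with RNF2 shRNA1. With GW-516 80 of 99 fell and 5 rose (median -0.37), where 29% of all genes tested fell and 26.5% rose. With RNF2 shRNA1 32 rose and 40 fell (median -0.01), against 26.2% and 28.6% of all genes. In the libraries labelled RNF2 shRNA2 15 rose and 37 fell (median -0.06), against 21.1% and 21% of all genes. With PRT4165 17 rose and 37 fell (median -0.07), against 19.9% and 21.7% of all genes. Under RNF2 shRNA1 the spindle and cytokinesis list held 13 increases and 4 decreases of 24, led by CKAP2L (log2 0.67), a spindle protein, and including the kinesin KIF18B (0.52) and HJURP (0.50), the chaperone that loads CENPA. The kinetochore list held 5 increases and 15 decreases of 29, led by SPDL1 (-0.87) and ZW10 (-0.79), which bring the motor dynein to kinetochores. The condensin and cohesin list held 4 increases and 9 decreases of 16, including the condensin subunits NCAPD3 (-0.44) and NCAPG (-0.47). CKAP2L, HJURP and KIF18B also rose with PRT4165 (0.65, 0.33 and 0.34). With GW-516 the transcript of PRC1, here the microtubule bundler of cytokinesis and not the Polycomb complex, fell by 0.70 on the log2 scale, that of the kinesin KIF15 by 0.91 and that of the condensin subunit NCAPD2 by 0.68.

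Regulators of mitotic transcription formed a list of 20, of which 3 rose and 14 fell with GW-516 and 6 rose and 10 fell with RNF2 shRNA1. Shares of all genes called higher and lower were 26.5% and 29% with GW-516, and 26.2% and 28.6% with RNF2 shRNA1. MYBL2, which activates G2/M promoters together with MuvB, measured 181 and 183 CPM in Scramble, 74.3 and 78.3 with RNF2 shRNA1, 130.1 and 135 in the libraries labelled RNF2 shRNA2, 208 and 206 with PRT4165, and 125 and 121 with GW-516. It was thus lowest with RNF2 shRNA1 (log2 -1.26, SE 0.03, edgeR adjusted p = 1.3e-19), the group in which most members were highest. CDKN1A, the CDK inhibitor p21, measured 16 and 14.5 CPM in Scramble, 19.8 and 19.5 with RNF2 shRNA1, 18.9 and 20.9 in the libraries labelled RNF2 shRNA2, 28.9 and 30 with PRT4165, and 69.6 and 72.4 with GW-516. CDKN1A was highest with GW-516, 4.64-fold above Scramble (log2 2.21, SE 0.06, edgeR adjusted p = 3.9e-20), the group in which 39 members were lowest. E2F7, a repressor of cell cycle genes, rose in all 4 groups, by 0.67 on the log2 scale with RNF2 shRNA1, 0.63 with PRT4165, 0.43 in the libraries labelled RNF2 shRNA2 and 0.35 with GW-516. Whether any of these regulators had a part in the members' levels was not tested.

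Because the comparisons above share the Scramble libraries, the hairpins and the compounds were also set against each other directly. Set against RNF2 shRNA1, 33 of 43 members were lower and 4 higher in the libraries labelled RNF2 shRNA2 (edgeR), where 29.2% of all genes tested were called lower, 29.9% higher and 59.2% in all. NUSAP1 (log2 -0.89), NEK2 (-0.88), AURKA (-0.87) and KIF2C (-0.84) stood among the decreases, and the 4 increases were ESPL1 (0.73), FOXM1 (0.26), MAD2L1 (0.19) and BIRC5 (0.07). The call of BIRC5 was lost with DESeq2, with the pairs summed and without any 1 of the 4 libraries compared. That of CDC20, a decrease, was also lost with the pairs summed. GW-516 had all 43 members lower than PRT4165 (edgeR), where 23% of all genes tested were called lower, 18.1% higher and 41.1% in all, with a median of -0.48 and a range of -0.85 to -0.26. MKI67 (-0.85), CENPF (-0.83) and ASPM (-0.78), a spindle pole protein, were among the lowest. The call of SPC25 was lost with the pairs summed. Both treatments lasted 48 hours, but no dose was given for either, so the compounds were not compared at matched doses.

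**Figure D5:**
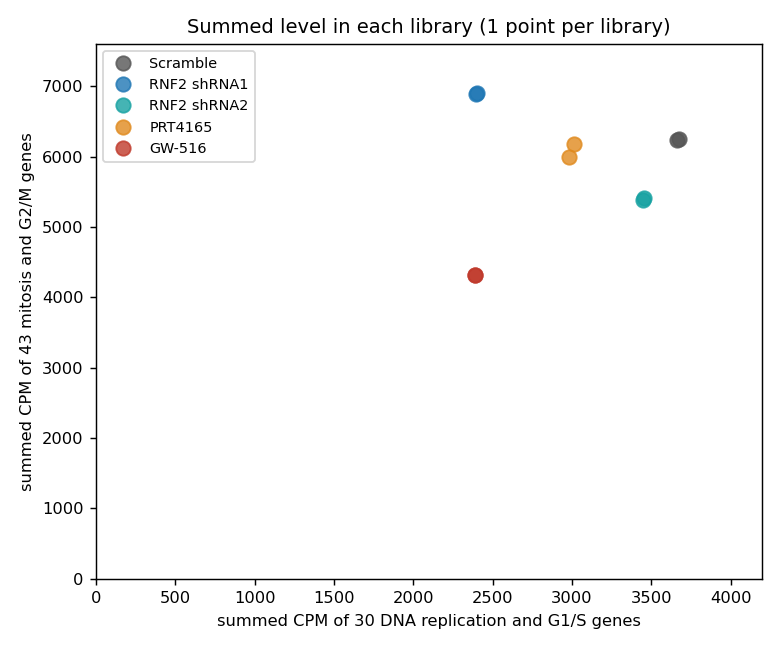
Summed CPM of the 43 mitosis and G2/M members (vertical axis) against summed CPM of 30 DNA replication and G1/S genes (horizontal axis), 1 point per library, coloured by group. RNF2 shRNA1 lies at 6908 and 6889.8 against about the same replication sum as GW-516, which lies at 4318 and 4314.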

How the data were processed

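Each library came with a deposited table of raw read counts per gene. Per the file headers the authors counted with featureCounts 1.4.3-p1, on the reverse strand (option 2) and without the read-pair option, with GENCODE 18. The genome build was hg19/GRCh37 per the submitters' processing notes, which also name STAR and DESeq2 1.8.1 with no role. Symbols matched 51488 of 57445 identifiers. Here edgeR 4.0.16 (R 4.3.3) was fitted to the deposited counts of all 10 libraries with 1 coefficient per group, TMM scaling and filterByExpr at a minimum count of 10. The two-sided quasi-likelihood test was adjusted by Benjamini-Hochberg over 18478 genes, and called means an adjusted p below 0.05. The fit had 5 residual degrees of freedom. It was also run on simulated counts with 1 spread for all genes and groups. The real groups differed in spread, so that run cannot show how well the p-values hold here. DESeq2 1.42.0, limma-voom (limma 3.58.1), other filters, left-out libraries and a replicate block were tried. Promoter searches used RefSeq entries on GRCh38.p14, whose coordinates were kept apart from the counts. Members and lists were chosen with earlier results of these data known. Named in each comparison with Scramble were CDK1, CCNB1, AURKA, PLK1, FOXM1, TOP2A and MKI67, and the leading member of each of 8 roles. The 3 largest called increases and decreases were named there too, and other members to complete their roles. Fewer members were named in the direct comparisons: some of the largest decreases, all increases and some whose calls were lost in other settings. Of other lists, genes were named from the 4 of smallest adjusted p.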

Additional observations from a re-analysis of the deposited data

Results flagged for a closer look

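The hairpin groups differed from each other by a direct test. In the libraries labelled RNF2 shRNA2, 33 of the 43 members were lower than with RNF2 shRNA1 and 4 were higher (edgeR adjusted p below 0.05). Of all genes tested 29.2% were called lower, 29.9% higher and 59.2% in all. The labels give both groups the same target, RNF2, whose level was 12.1 and 12 CPM with RNF2 shRNA1 and 33.5 and 35.3 CPM in the libraries labelled RNF2 shRNA2. The compounds also differed by a direct test, with 43 of 43 members lower with GW-516 than with PRT4165. There 23% of all genes tested were called lower, 18.1% higher and 41.1% in all. No dose was given in the labels for either compound.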

How the results depend on the processing

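Requiring a change of at least 2-fold left 0 members called in each of the 6 comparisons. Against Scramble, the share of all genes called at 2-fold was 8.57% for RNF2 shRNA1 and 4.87% for the libraries labelled RNF2 shRNA2. It was 4.76% for PRT4165 and 9.05% for GW-516 against Scramble, 11.2% between the hairpin groups and 4.38% between the compounds. Summing each near-identical pair (7 samples in all), the members called were 21 in RNF2 shRNA1 against Scramble and 10 in PRT4165 against Scramble, where the lone samples are assumed to vary like the remaining groups. Leaving out each library in turn gave 29 to 31 members called for RNF2 shRNA1, 24 to 29 for the libraries labelled RNF2 shRNA2, 15 to 22 for PRT4165 and 41 to 42 for GW-516 against Scramble. It gave 36 to 38 for the hairpin groups and 41 to 43 for the compounds against each other. The lowest value for PRT4165 came without Scramble replicate 2. In each of these fits a group kept a single library, and the share of all genes called fell as well in all 6 comparisons. The ranges are therefore not a result about the members alone. With the replicate number as a block, 36, 29, 23, 42, 36 and 43 members were called in the 6 comparisons, in the order given above. The shares of all genes called there were 54.1%, 41.3%, 40.7%, 54.8%, 58.7% and 40.2%. Whether the replicate numbers pair the libraries could not be decided. Deviations from group means correlated between -0.008 and 0.021 in the groups compared. Each comparison held a group whose libraries differed by little more than sampling noise, which leaves little for such a correlation to show. Between the libraries labelled RNF2 shRNA2 and those of PRT4165, the groups with the wider spread, the correlation was -0.121. No log2 fold change of a named member changed sign where it was called, and the other tools, filters and size factors kept every count of members called within 1.5 times the reported one. SPC25, under 10 CPM, had the fewest reads of the members. All intervals cover only the spread between these libraries.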

Other observations

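Outside the lists, the genes whose 5 group means followed the members' mean most closely were EFR3A, TBL1XR1, ECH1, CDK5RAP2 and SLC11A2, with Pearson's r of 0.9943 to 0.9984 among 10418 genes compared. The likeness rests on 5 points and is given as a description. The members' mean, centred over the groups, was 0.12 in Scramble, 0.25 with RNF2 shRNA1, -0.08 in the libraries labelled RNF2 shRNA2, 0.10 with PRT4165 and -0.39 with GW-516 on the log2 scale. CDK5RAP2, a centrosome protein, stood at 0.12, 0.23, -0.07, 0.05 and -0.32 in the same order.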
